A study of Mus musculus with 4 samples.

Results

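The well-measured members of the mouse Zfp zinc finger gene family were compared between ethanol and 4-hydroxytamoxifen treatment. They are the genes whose symbol is Zfp, a number and at most 1 letter, with at least 200 reads in each of the 4 libraries. Of 359 symbols of that form (2 more were left out by the rule), 155 met the read limit, out of 24428 genes in the count files. The members were thus chosen by their counts in the same libraries that are compared here, and their levels above the limit are a description. Zfp942, Zfp715 and Zfp354c stood just inside it, with smallest counts of 205, 207 and 211, and Zfp90, Zfp52 and Zfp870 just outside, with 195, 199 and 199.

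Most Zfp genes encode proteins with C2H2 zinc fingers, short loops in which a pair of cysteines and a pair of histidines hold a zinc ion and the residues between them contact DNA or RNA. Many of these proteins also carry a KRAB box, a domain that binds the corepressor TRIM28 and through it the histone methyltransferase SETDB1, and KRAB zinc finger proteins are best known in embryonic stem cells for silencing retroelements. KRAB zinc finger genes arose by repeated duplication and lie in clusters of related copies. Other Zfp proteins are transcription factors, chromatin regulators, RNA-binding proteins or ubiquitin ligases, so the name groups genes by a protein fold and not by a pathway.

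The cells were embryonic stem cells from 129SvEv mice, grown with serum and LIF, in which both alleles of Smarca4 (the ATPase of the SWI/SNF chromatin remodelling complex, also called BRG1) are floxed and a tamoxifen-activated Cre (CreER) can delete them. There were 2 libraries of poly(A) RNA after ethanol and 2 after 4-hydroxytamoxifen at 0.8 uM, with an exposure of 48 h and harvest at 72 h in all. All 4 libraries carry the same genotype label, and neither the promoter of the CreER nor the number of clones is given in the sources used here. No cells without the floxed alleles that received 4-hydroxytamoxifen were analysed here, so the effect of the drug and that of the deletion cannot be told apart. The labels do not say whether the replicates were separate cultures, so the p-values reflect the spread among these libraries alone, which may be technical.

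Smarca4 itself had 5042 and 10649 reads with ethanol against 968 and 1226 with tamoxifen, a change of -2.43 ± 0.17 (log2 fold change ± SE, edgeR quasi-likelihood test, adjusted p = 1.08e-05). Reads in genes numbered 13458463 to 27086142 per library, with tamoxifen replicate 1 the shallowest and ethanol replicate 2 the deepest, and the members held 1.05 to 1.25% of them. The share of reads outside genes was 51.7 and 40.8% with ethanol and 37.6 and 35.0% with tamoxifen. The summed level of 10 stem cell markers was 5573 to 5779 CPM (counts relative to library size, with TMM factors) with ethanol and 5500 to 5826 with tamoxifen. The sum hides opposite changes: Fgf4 (log2 fold change -0.93) and Tdgf1 (-0.52) were lower, and Klf4 (0.62) and Dppa5a (0.53) higher. With a correction for GC content described below, 2 of the 10 were higher and 3 lower. The summed level of 15 fibroblast markers was 430 and 510 CPM with ethanol and 974 and 1088 with tamoxifen. Of the 13 tested, 11 were higher, where 21.5% of all genes tested were. With GC correction 11 of the 13 were also higher (10 in both fits), where 10.1% of all genes tested were. The part of fibroblast RNA in the results below was not tested. The 7 neural markers summed to 438 and 444 CPM with ethanol and to 279 and 286 with tamoxifen. Stmn2 had the highest level among them, at 314 and 290 CPM against 131 and 154, and of the 6 neural markers tested 2 were lower (Stmn2 and Map2) and 2 higher (Tubb3 and Pax6). The 7 endoderm markers summed to 523 and 813 CPM against 606 and 779, with 2 higher and 1 lower. No marker was at 0 in all libraries. Fewer cells of a type and less RNA per cell cannot be told apart in such bulk samples.

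The members differ in protein and in base composition. A KRAB box, taken as a stretch of 36 residues with at least 15 identical to a consensus built from the mouse proteins, was found in 62 members and not in 93. A more divergent box would be missed, so members without a KRAB box are those in which this rule found none. Members with a KRAB box had a median of 12 finger motifs and those without had 6. The median GC content of the longest transcript was 40.8% for members with a KRAB box and 48.8% for those without, against 50.5% over all genes tested. The finger-coding bases differed in the same way, with medians of 41.5% GC in the 61 KRAB members with a motif and 50.5% in 87 without a KRAB box. At the third codon position in the fingers the medians were 38.2 and 65.1%. Synonymous codons allow one finger fold to be written in many base compositions, and the first canonical finger is printed here for 5 members that were lower and 5 that were higher with tamoxifen. Each runs from the first cysteine codon to the last histidine codon of a 21-codon unit in the GENCODE M21 transcript, with the cysteine and histidine codons in capitals. They are shown because these genes were among the largest changes in each direction and differ in base composition.
Zfp534: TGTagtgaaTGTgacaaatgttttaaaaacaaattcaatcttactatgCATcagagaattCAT
Zfp97: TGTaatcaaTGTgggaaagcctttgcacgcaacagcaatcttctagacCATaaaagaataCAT
Zfp960: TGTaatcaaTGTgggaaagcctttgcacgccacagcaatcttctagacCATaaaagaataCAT
Zfp930: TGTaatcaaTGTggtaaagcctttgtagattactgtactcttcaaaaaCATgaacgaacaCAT
Zfp518a: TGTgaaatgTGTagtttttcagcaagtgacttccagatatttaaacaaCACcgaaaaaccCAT
Zfp710: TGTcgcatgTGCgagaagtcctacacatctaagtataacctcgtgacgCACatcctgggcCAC
Zfp335: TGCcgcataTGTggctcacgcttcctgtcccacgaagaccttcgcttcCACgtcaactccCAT
Zfp296: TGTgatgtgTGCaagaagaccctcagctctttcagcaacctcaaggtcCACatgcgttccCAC
Zfp219: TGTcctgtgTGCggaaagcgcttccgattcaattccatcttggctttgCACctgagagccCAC
Zfp428: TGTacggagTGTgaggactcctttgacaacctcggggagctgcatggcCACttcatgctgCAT
The GC content of these 63 bases was 27.0% in Zfp534, 38.1% in Zfp97, 39.7% in Zfp960, 33.3% in Zfp930 and 34.9% in Zfp518a. It was 52.4% in Zfp710, 57.1% in Zfp335, 52.4% in Zfp296, 54.0% in Zfp219 and 55.6% in Zfp428. Over all finger-coding bases of a gene, GC content ran from 33.5% in Zfp534 to 42.8% in Zfp518a among the first 5. Among the other 5 it ran from 55.6% in Zfp428 to 58.2% in Zfp219. The sequences of Zfp97 and Zfp960 resemble each other closely, and their proteins were identical at 526 of 546 aligned positions (96.3%).

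Of the 155 members, 77 were lower and 28 higher with tamoxifen (edgeR, Benjamini-Hochberg adjusted p under 0.05 over 14479 genes), and 50 did not pass the test. Over all genes tested, 22.9% were called lower and 21.5% higher, and 44.5% were called in either direction. The median log2 fold change of the members was -0.41, against -0.01 over all genes tested. Among the members, 24 were called and at least 2-fold lower and 3 at least 2-fold higher, against 6.7 and 5.93% of all genes. The tamoxifen libraries were both below the ethanol libraries in 95 members and both above them in 34, where 37.0 and 37.0% of all genes tested fell so (74.0% on either side).

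The decreases were mostly in members with a KRAB box. Of those 62 members, 52 were lower, 9 did not pass the test and 1, Zfp777, was higher, and their median log2 fold change was -0.75. Zfp777 stood at 21.5 and 21.1 CPM with ethanol and at 36.0 and 35.9 with tamoxifen, and its transcript has a GC content of 59.1%. Its log2 fold change of 0.76 was 0.19 with a correction for GC content described below, and was not called there. Of the 93 members without a KRAB box, 25 were lower and 27 higher, with a median of -0.11. Scaling by total counts moved the median of all genes by 0.13, and the medians moved with it to -0.63 for KRAB members and to 0.02 for the members without a KRAB box, which changed sign. The difference between the KRAB and non-KRAB members was not tested, and the groups also differ in GC content.

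**Figure D1:**
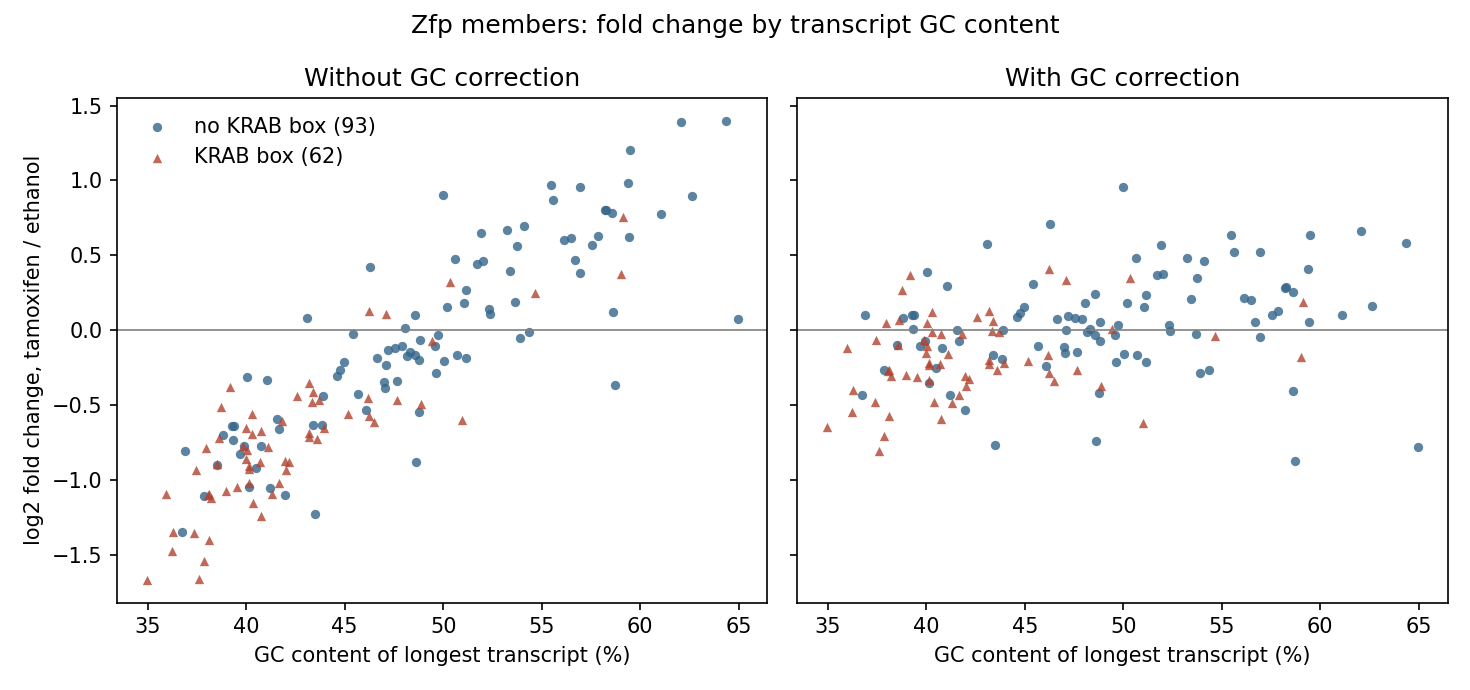
Log2 fold change of each member (vertical axis, tamoxifen over ethanol) against the GC content of its longest transcript in percent (horizontal axis), without GC correction at left and with it at right. Triangles are the 62 members with a KRAB box and circles the 93 without. The points rise from -1.67 at low GC content to 1.40 at high GC content at left, and lie closer to 0 at right.

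The change of a member followed the GC content of its transcript. Across the 155 members, Spearman's rho between the log2 fold change and transcript GC content was 0.889, with 0.789 in the 62 KRAB members and 0.86 in the 93 others, and over 14393 genes tested it was 0.645. These points share the same 4 libraries and genes are not independent replicates, so no p is given. All genes tested were divided into 10 bins of equal size by GC content. In the lowest bin, up to 42.0%, 53 of 56 members were lower, as were 72.2% of all genes there. The median log2 fold change in that bin was -0.90 for members and -0.75 for all genes. In the highest bin, from 58.5%, 9 of 13 members were higher, as were 59.4% of all genes. The medians there were 0.77 for members and 0.69 for all genes.

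Split by the KRAB box, the members of low GC content were mostly lower in both groups. In the lowest 3 bins of GC content, 49 of 53 KRAB members and 23 of 32 other members were lower, with medians of -0.86 and -0.64, and 2331 of all 4318 genes there (54.0%) were lower, with a median of -0.51. These are 92.5% of the KRAB members and 71.9% of the others, and 1 of the others was higher. With GC correction 8 of the 53 (15.1%) and 3 of the 32 (9.4%) were lower, and 2 of the 32 (6.3%) were higher. Of all genes in these bins 9.6% were lower and 9.7% higher with correction. In the sixth bin the single KRAB member was lower, at -0.60, while 4 of 10 other members were higher and none was lower, with a median of 0.22. Bin 3 showed a smaller contrast in the same direction. There 4 of 5 KRAB members were lower, with a median of -0.56. Of the 8 other members in bin 3, 2 were lower and 1 higher, with a median of -0.24. In bin 1 the medians were -0.94 for KRAB members and -0.77 for others, and in bin 2 they were -0.65 and -0.64. Bins 4 and 5 did not show such a contrast in their medians. In the fifth bin 1 of 3 KRAB members and 2 of 10 others were lower, with medians of -0.08 and -0.15. In the fourth bin the medians were -0.18 for 2 KRAB members and -0.16 for 12 others. The difference between KRAB and other members within a bin was not tested. In the highest 3 bins, which held 3 KRAB members, 19 of 26 members (73.1%) were higher and none was lower in edgeR, also at an unadjusted p under 0.05 and in DESeq2 and limma. Of all 4318 genes there, 2133 (49.4%) were higher and 147 lower. With GC correction 6 of the 26 members were higher and 1 was lower (23.1 and 3.8%), against 10.0 and 9.8% of all genes there. The finger-coding GC content followed the change in 148 members with a motif (rho 0.844), as did the GC content at the third codon position (0.831). For 125 members RefSeq (GRCm38.p6) gave a promoter, from 250 bases before to 50 after the start, and promoter GC content followed the change less closely (rho 0.398) than transcript GC content did in the same genes (0.881). Within the 53 KRAB members with a promoter, rho with promoter GC content was 0.15, and within the 72 others 0.107. The libraries of 1 group were compared in the same way: rho between transcript GC content and the log2 difference of replicate 2 from replicate 1 was -0.378 with ethanol and -0.486 with tamoxifen across the members. Over all genes tested it was -0.264 with ethanol and -0.063 with tamoxifen, and in the KRAB members 0.001 and -0.528.

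**Figure D2:**
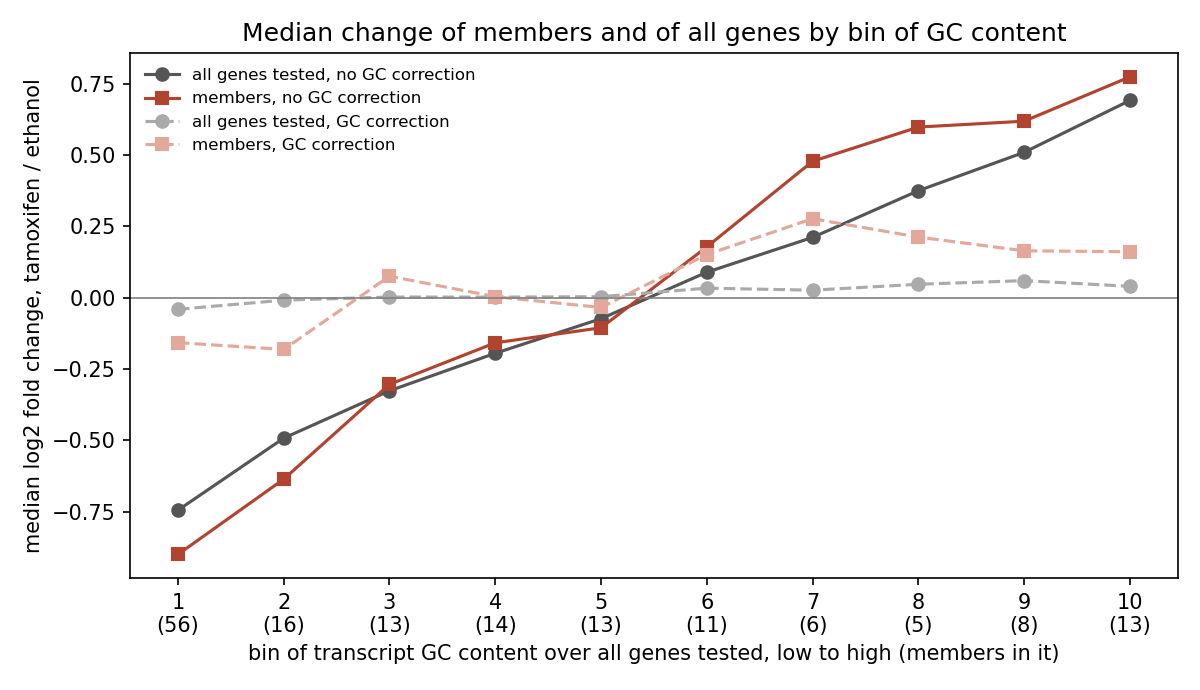
Median log2 fold change (vertical axis, tamoxifen over ethanol) in each of 10 bins of transcript GC content over all genes tested (horizontal axis, low to high, with the number of members below each). Squares are the members and circles all genes tested, and dashed lines are the fit with GC correction. Without correction both lines rise from -0.90 and -0.75 in the lowest bin to 0.77 and 0.69 in the highest.

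A second fit removed, before the test, the trend with transcript GC content of each library's deviation from the mean of the libraries in the fit. In that fit 14 members were lower and 12 higher, against 10.0 and 10.1% of all genes tested (20.1% in either direction), and the median of the members was -0.03. Of the 77 members called lower, 13 were also called with the correction, and of the 28 called higher 11 were. The KRAB members held 9 of the corrected decreases (median -0.21), and the members without a KRAB box 5 (median 0.06). Without tamoxifen replicate 1 the corrected fit called 3 members higher and 3 lower, and without tamoxifen replicate 2 it called 2 lower and none higher (11 members at an unadjusted p under 0.05). A trend that differs between the pair of ethanol and the pair of tamoxifen libraries because of the treatment and one that comes from library preparation cannot be told apart in this design. Corrected values are given below beside the calls.

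Among the largest decreases, Zfp534 read 270.1 and 204 CPM in ethanol replicates 1 and 2 and 61.1 and 87.9 CPM in tamoxifen replicates 1 and 2. Both tamoxifen libraries lay far below both ethanol libraries, although the ethanol libraries differed between themselves. The change was 3.18-fold (log2 -1.67 ± 0.20, edgeR adjusted p = 0.00019), and it was -0.65 with GC correction (adjusted p = 0.0486). Zfp600, a KRAB gene on the same chromosome 4 whose protein was 64.5% identical to that of Zfp534, read 246 and 171 CPM with ethanol and 63.0 and 86.8 with tamoxifen. It showed the same order of libraries, and its log2 fold change of -1.48 ± 0.21 (adjusted p = 0.000481) became -0.54 with GC correction (adjusted p = 0.123).

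Zfp97 and Zfp960 lie next to each other on chromosome 17 and both carry a KRAB box and 13 finger motifs. Zfp97 read 87.3 and 87.0 CPM with ethanol and 23.5 and 31.4 with tamoxifen, and its log2 fold change was -1.66 ± 0.17 (edgeR adjusted p = 6.19e-05). Zfp960 read 84.9 and 87.2 CPM with ethanol and 25.3 and 33.6 with tamoxifen, with a log2 fold change of -1.54 ± 0.17 (adjusted p = 9.06e-05). The ethanol libraries of each gene stood close together and well above both tamoxifen libraries. With GC correction both were still called, at -0.81 (adjusted p = 0.00314) and -0.71 (adjusted p = 0.00611). Since the proteins were 96.3% identical, reads may have been split between these genes or dropped, and the values of the pair are uncertain.

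Zfp930, a KRAB gene on chromosome 8, read 106 and 117 CPM with ethanol and 38.6 and 45.8 with tamoxifen. Its libraries did not overlap, and its log2 fold change of -1.40 ± 0.15 (edgeR adjusted p = 9.08e-05) was -0.58 with GC correction (adjusted p = 0.0119). Zfp942, a KRAB gene just inside the read limit, read 39.9 and 44.6 CPM against 14.5 and 18.5. Its change was -1.35 ± 0.17 (adjusted p = 0.000165), and -0.48 with GC correction (adjusted p = 0.0441). Zfp808, another KRAB gene, with 22 finger motifs, fell by 1.35 ± 0.20 on the log2 scale, from 67.6 and 86.1 CPM to 24.3 and 35.8 (adjusted p = 0.000492), and its corrected value was -0.40 (adjusted p = 0.105). In each of these genes tamoxifen replicate 1 was the lowest library. Zfp518a has no KRAB box, and it read 223 and 273 CPM with ethanol and 79.5 and 115 with tamoxifen. Its log2 fold change was -1.35 ± 0.19 (adjusted p = 0.000385) and its corrected value -0.43 (adjusted p = 0.0791).

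**Figure D3:**
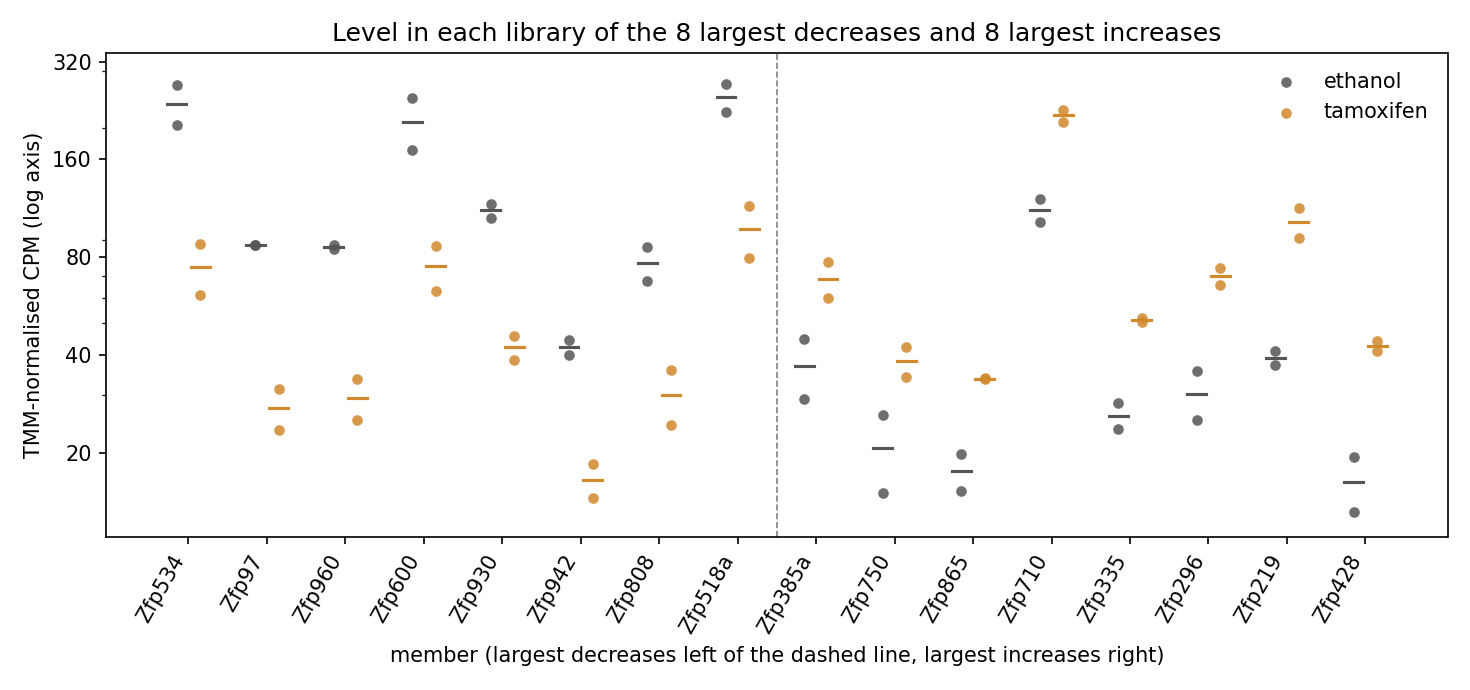
Level of each gene in each library as TMM-normalised CPM (vertical log axis) for the 8 members with the largest decreases (left of the dashed line) and the 8 with the largest increases (right). Points are the 2 ethanol and 2 tamoxifen libraries and bars their means. The ethanol and tamoxifen points of these 16 genes do not overlap, because genes with overlapping libraries were not eligible, as in Zfp97, with 87.3 and 87.0 CPM against 23.5 and 31.4.

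None of the 8 members with the largest increases had a KRAB box. Zfp428 read 19.4 and 13.2 CPM with ethanol and 44.2 and 41.0 with tamoxifen, and Zfp219, a transcriptional regulator with 9 finger motifs, read 41.1 and 37.2 against 91.8 and 113 CPM. In both, every tamoxifen library was more than 2-fold above every ethanol library. Their log2 fold changes were 1.40 ± 0.19 and 1.39 ± 0.16 (edgeR adjusted p = 0.000243 and 0.000108), and 0.58 and 0.66 with GC correction (adjusted p = 0.0254 and 0.0067). Zfp296, a factor of pluripotent cells, read 35.6 and 25.2 CPM with ethanol and 65.5 and 74.1 with tamoxifen. The change was 1.21 ± 0.18 (adjusted p = 0.000391), and 0.63 with GC correction (adjusted p = 0.0127).

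Zfp335, a component of a histone H3 lysine methyltransferase complex, read 28.3 and 23.7 CPM with ethanol and 50.4 and 52.1 with tamoxifen. Its log2 fold change of 0.98 ± 0.15 (edgeR adjusted p = 0.000554) was 0.41 with GC correction (adjusted p = 0.0603). Zfp710 read 121 and 102 CPM with ethanol and 228 and 209 with tamoxifen. Its change was 0.97 ± 0.15 (adjusted p = 0.000567), and 0.64 with GC correction (adjusted p = 0.00756). Zfp865 rose by 0.96 ± 0.17, from 19.7 and 15.3 to 33.6 and 33.9 CPM, and by 0.52 with GC correction (adjusted p = 0.00103 and 0.0305). Zfp385a, an RNA-binding partner of p53, read 44.8 and 29.3 CPM against 77.3 and 59.9. Its change of 0.89 ± 0.21 (adjusted p = 0.00648) was 0.16 with GC correction (adjusted p = 0.576).

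In a few members the change with correction was larger or nearly as large. Zfp750, a regulator of epidermal differentiation, read 26.2 and 15.1 CPM with ethanol and 42.2 and 34.1 with tamoxifen, with a log2 fold change of 0.90 ± 0.25 and a corrected value of 0.96 (edgeR adjusted p = 0.0158 and 0.0201). Its protein in the reference has no C2H2 motif of the form searched, and the GC content of its transcript is near the median of all genes tested. Zfp91, a zinc finger ubiquitin ligase with a transcript of 48.6% GC, read 153 and 108 CPM with ethanol and 81.5 and 60.5 with tamoxifen. Its change was -0.88 ± 0.20 and its corrected value -0.74 (adjusted p = 0.00444 and 0.0182). Zfp7 and Zfp652 are named after their values were seen, as further called members of this kind. Zfp7, with a KRAB box and 51.0% GC, stood at -0.60 and at -0.62 with correction (adjusted p = 0.00828 and 0.0134). Zfp652, with 46.3% GC, stood at 0.42 and at 0.71 with correction (adjusted p = 0.0264 and 0.00326). One call was made only in the corrected fit in each direction. Zfp580, whose 64.96% GC is the highest of the members, was at 0.07 and at -0.78 with correction (adjusted p = 0.0111), and Zfp281 is described with the regulators below.

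Members in clusters were mostly lower. With a cluster taken as a run of members with at most 5 other protein-coding genes between neighbours, 62 members lay in clusters, of which 44 were lower and 5 higher, and 93 lay outside, of which 33 were lower and 23 higher. The shares lower and higher were 71.0 and 8.1% in clusters and 35.5 and 24.7% outside, against 22.9 and 21.5% of all genes tested. Within clusters 44 members had a KRAB box, and 38 of these were lower. The median GC content was 41.6% in clusters and 48.3% outside, and the difference between the groups was not tested. With GC correction 9 members in clusters were lower and 1 higher (14.5 and 1.6%). Outside clusters 5 were then lower and 11 higher (5.4 and 11.8%), against 10.0 and 10.1% of all genes tested.

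The largest cluster, on chromosome 13, held 7 members, all with a KRAB box, and 6 were lower. Zfp459 read 36.7 and 35.6 CPM with ethanol and 15.3 and 15.3 with tamoxifen (log2 fold change -1.24 ± 0.15, edgeR adjusted p = 0.000159), and it was the 1 member of the cluster called with GC correction, at -0.60 (adjusted p = 0.0157). Zfp748, Zfp729a and Zfp738 changed by -1.02, -1.05 and -1.07, and by -0.34, -0.32 and -0.30 with correction. The proteins of Zfp729a and Zfp738 were 71.5% identical, and reads of such copies may have been split. Zfp874a and Zfp874b, neighbours in the same cluster with 92.9% identical proteins, read 41.8 and 41.9 CPM against 29.7 and 34.6, and 24.9 and 24.9 against 16.4 and 14.9. Zfp874b was called (-0.67, edgeR adjusted p = 0.0051) and Zfp874a was not (-0.38, adjusted p = 0.0578). With correction neither was called, at -0.02 and 0.37.

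The cluster on chromosome 7 held 6 members, 4 with a KRAB box. There Zfp383 (-0.71), Zfp74 (-0.65) and Zfp260 (-0.66, without a KRAB box) were called lower, and Zfp146, at -0.20 (adjusted p = 0.343), was not. With GC correction these 4 stood at -0.23, -0.22, -0.07 and -0.07, and none of the 6 members was called. These members had a median GC content of 45.1%, above the 39.5% of the chromosome 13 cluster. On chromosome 17 all 5 members of a cluster were lower, with Zfp51 at -0.90, Zfp948 at -0.88, Zfp760 at -1.12 and Zfp942 at -1.35. With correction they stood at -0.10, -0.23, -0.30 and -0.48, 1 of the 5 members, Zfp942, was still called, and 1 of the 5 was above 0. Zfp52, left out of the members by the read limit, lies between Zfp51 and Zfp948 in gene order. Its change of -0.15 was not called (edgeR adjusted p = 0.491), and with correction it was called higher at 0.55. A second cluster on chromosome 17 held Zfp955a and Zfp955b, whose proteins were 95.4% identical and whose changes were -0.86 and -1.02 (edgeR adjusted p = 0.00333 and 0.000727). With correction they stood at -0.16 and -0.43, and none of its 4 members was called. Its member Zfp414 is named because its libraries disagreed: it read 107 and 42.0 CPM in the ethanol libraries and 65.4 and 50.2 with tamoxifen.

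**Figure D4:**
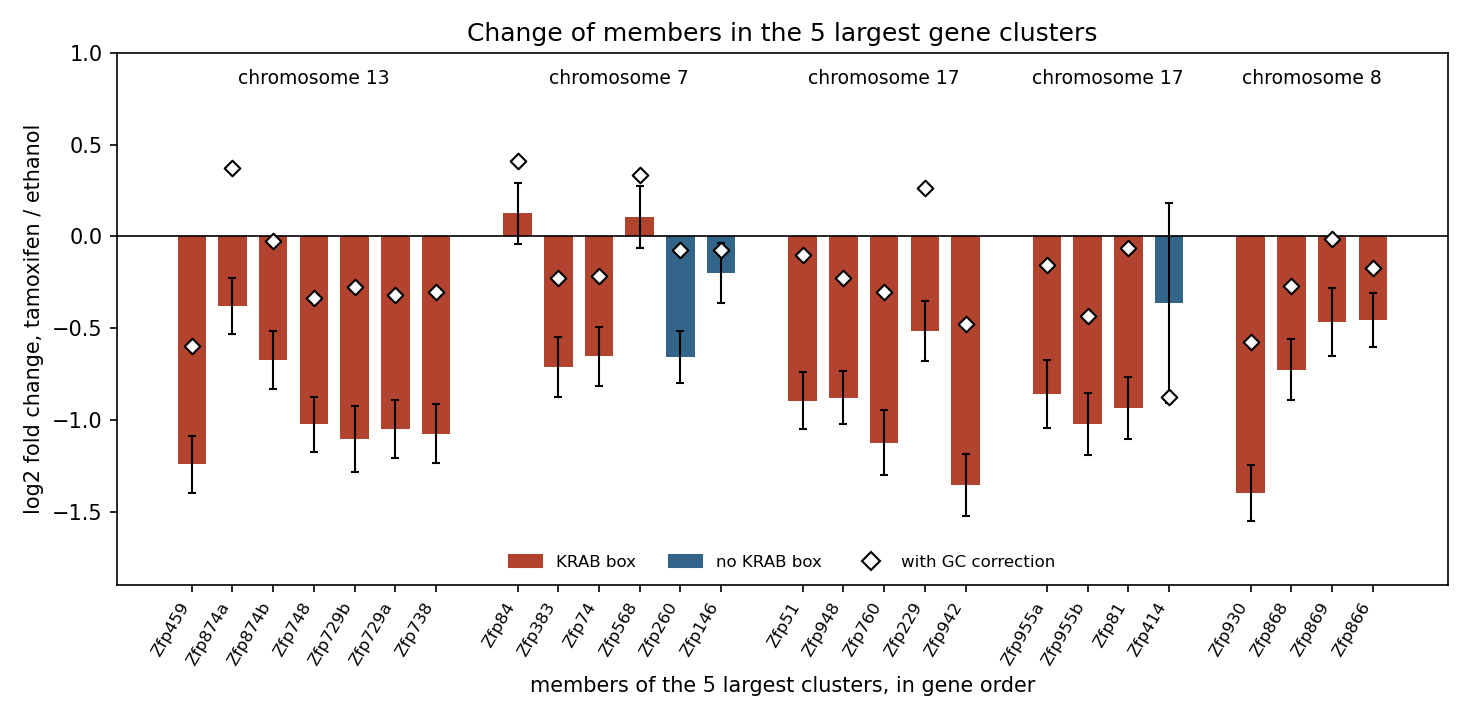
Log2 fold change (vertical axis, tamoxifen over ethanol) of the members in the 5 largest gene clusters, in gene order (horizontal axis). Bars with standard errors are the fit without GC correction, coloured by the KRAB box, and diamonds the value with GC correction. The 7 members on chromosome 13 lie between -1.24 and -0.38 without correction.

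Of 3 members known to silence defined targets, 2 were called lower and 1 was not called, where 22.9% of all genes tested were lower. Zfp809, which binds the primer binding site of retroviruses and brings in TRIM28, read 66.3 and 59.7 CPM with ethanol and 42.7 and 42.6 with tamoxifen. Both tamoxifen libraries were lower, at a log2 fold change of -0.56 ± 0.14 (edgeR adjusted p = 0.00828), and the corrected value was -0.21 (adjusted p = 0.324). Zfp445, which helps to maintain imprints, read 110.2 and 125 CPM against 76.1 and 92.5 (-0.48 ± 0.15, adjusted p = 0.0239, corrected -0.0051). Zfp568, which represses a placental Igf2 transcript, read 181 and 239 CPM against 216 and 237, and its libraries overlapped (0.11 ± 0.17, adjusted p = 0.628). No call on these 3 genes was made with GC correction in edgeR, and none of them had an unadjusted p under 0.05 there.

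Of 19 members listed as transcription and chromatin regulators, 5 were higher and 7 lower, with a median of -0.11. These are 26.3 and 36.8%, against 21.5 and 22.9% of all genes tested. With GC correction 3 were higher and 1 lower (15.8 and 5.3%, against 10.1 and 10.0% of all genes tested). Zfp322a, which activates pluripotency genes, read 86.8 and 114 CPM with ethanol and 53.1 and 54.1 with tamoxifen (-0.90 ± 0.16, edgeR adjusted p = 0.00106, corrected -0.10). Also lower were Zfp292 (-0.92), Zfp148, which binds GC-rich promoter elements (-0.77), Zfp110, a partner of the neurotrophin receptor whose protein is 83.1% identical to that of Zfp369 (-0.61), and Zfp644, a partner of the G9a methyltransferase (-0.59). None of these 4 was called with correction, at -0.25, -0.07, -0.34 and -0.0016, and 1 regulator, Zfp91, was. Zfp217, a subunit of corepressor complexes, and Zfp423, which works with Smad proteins, were higher at 0.44 (adjusted p = 0.026) and 0.47 (adjusted p = 0.0262), and at 0.37 and 0.05 with correction.

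The other 7 listed regulators did not pass the test without GC correction, which does not show that they were unchanged. Zfp462, a heterochromatin factor, read 397 and 409 CPM with ethanol and 422 and 391 with tamoxifen, a change of 0.01 and, with correction, of 0.18, neither of them called. Zfp281, a regulator of pluripotency exit, read 203 and 226 CPM against 218 and 237, and its libraries overlapped (0.08 ± 0.15, edgeR adjusted p = 0.676). With its transcript of 43.1% GC, the corrected value was 0.57 (adjusted p = 0.0126). Zfp143 (-0.26), Zfp410, the regulator of Chd4 (-0.11), Zfp451, a SUMO ligase (-0.34), Zfp609 (0.14) and Zfp384 (0.39) did not pass the test, with or without correction. Without it, the adjusted p of these 5 ranged from 0.053 for Zfp384 to 0.646 for Zfp410.

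Of 10 members listed as RNA, ribosome and spindle proteins, 3 were lower and 3 higher, against 22.9 and 21.5% of all genes tested. With GC correction 1 of the 10 was lower, against 10.0% of all genes tested. That was Zfp326, a subunit of a complex that couples transcription elongation to splicing. It read 81.4 and 75.8 CPM with ethanol and 35.2 and 31.9 with tamoxifen, with no overlap. Its log2 fold change was -1.23 ± 0.15 (edgeR adjusted p = 0.000141), and -0.77 with correction (adjusted p = 0.00312). Zfp638, an RNA-binding nuclear protein, read 213 and 272 CPM against 103 and 132 (-1.05 ± 0.18, adjusted p = 0.000789, corrected -0.36).

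Zfp207, a spindle assembly protein, had the highest level of the members per transcript length, at 247 CPM per kilobase with ethanol and 159 with tamoxifen. It read 771 and 657 CPM against 464 and 455 (-0.64 ± 0.16, edgeR adjusted p = 0.00653, corrected -0.20). Zfp598, a ubiquitin ligase that marks collided ribosomes, and Zfp36, the mRNA decay factor tristetraprolin, were higher at 0.62 (adjusted p = 0.0138) and 0.70 (adjusted p = 0.0141), and at 0.06 and 0.46 with correction. Zfp36 binds RNA through fingers of another type and has no C2H2 motif. Zfp106 (-0.23), Zfp346 (0.11), Zfp622, a ribosome assembly factor (0.27), and Zfp830 (0.10) did not pass the test, with or without correction.

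Genes of the same name pattern below the read limit were also lower more often than higher. Of 204 such genes, 182 were tested, with 83 lower and 23 higher and a median of -0.38. These are 45.6 and 12.6% of those tested, against 22.9 and 21.5% of all genes tested. With GC correction 18 were lower and 11 higher (9.9 and 6.0%, against 10.0 and 10.1% of all genes tested). The limit does not fall evenly on the groups, since 55 of the 204 fell short in the tamoxifen libraries only and 3 in the ethanol libraries only. Of the 6 genes nearest the limit, Zfp715 (-0.91), Zfp354c (-0.61) and Zfp942 inside and Zfp870 (-0.67) outside were called lower. With GC correction Zfp942 alone of these 4 was called, and Zfp715 stood at -0.22, Zfp354c at -0.03 and Zfp870 at -0.27. Zfp90 (-0.07) and Zfp52 (-0.15) outside were not called lower, and with correction they stood at 0.02 and, called higher, at 0.55. With a limit of 100 reads 121 members were lower and 36 higher, and with 500 reads 34 and 15. The numbers of members at these limits are not given here, so shares are not either.

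Of 38 genes that work with KRAB zinc finger proteins in repression, 10 were lower and 5 higher, with a median of -0.11. These are 26.3 and 13.2%, against 22.9 and 21.5% of all genes tested. With GC correction 3 were lower and 2 higher (7.9 and 5.3%, against 10.0 and 10.1% of all genes tested). Hdac2, a histone deacetylase, was at -1.01 (edgeR adjusted p = 0.000457), Sumo2, a SUMO protein, at -0.95 (adjusted p = 0.000478), and Atrx, a chromatin remodeller, at -0.98 (adjusted p = 0.000558). Their corrected values were -0.44, -0.51 and -0.25, and the first 2 were still called. Chd3, a remodeller of the NuRD complex, was higher at 0.98 (adjusted p = 0.000424), and at 0.59 with correction (adjusted p = 0.0127). Trim28 and Setdb1, the core of the pathway, are named after their values were seen: Trim28 rose from 675 to 1065 CPM (0.66, adjusted p = 0.01, corrected 0.08) and Setdb1 stood at 189 and 154 CPM (-0.29, adjusted p = 0.129). Among 15 SCAN zinc finger genes, relatives outside the name pattern, 4 were lower and 3 higher in edgeR. These are 26.7 and 20.0%, near the shares of all genes tested. Zkscan8 (-1.12), Zkscan3 (-0.72) and Zscan26 (-0.66) were lower and Zkscan17 (0.64) was higher, and none of these 4 was called with correction, at -0.49, -0.47, -0.24 and 0.14.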

How the data were processed

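RNA-seq was done on 4 samples, grouped by title into 2 with ethanol and 2 with 4-hydroxytamoxifen. The deposited files hold raw counts of reads for each gene symbol. The summary lines at the end of each file were kept out of library sizes and tests. The submitters' processing notes name CASAVA 1.8.2, Bowtie 1.1.1, HTSeq, DESeq2 and the build mm9, but what each tool did, the gene models and the strandedness of counting are not stated in the notes. Reads of a gene and of its antisense or overlapping partner can therefore not be separated.

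Tamoxifen was compared with ethanol with edgeR 4.0.16 in R 4.3.3 (robust quasi-likelihood test, TMM factors, filterByExpr, Benjamini-Hochberg over 14479 genes, threshold 0.05), and the biological coefficient of variation was 12.6%. Alternatives used DESeq2 1.42.0, limma 3.58.1, other scalings, thresholds and read limits, a replicate block and each library left out. The GC correction used a loess trend (span 0.5, degree 1) on transcript GC content as an offset. The trend was fitted to each library's deviation from a gene's mean log2 CPM over the libraries in the fit. Its combination with left-out libraries and with the block was added after seeing the data. Gene names were matched to GENCODE M21 (23535 of 24428 directly, 506 by synonym), which also gave gene order, transcripts and translated proteins. Finger motifs were a pair of cysteines 2 to 4 residues apart, 12 residues and a pair of histidines 3 to 5 residues apart. Coordinates are not given, because the reference (GRCm38) and the files (mm9) use different builds. The fits were tested on simulated data.

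The members, gene lists and tests were chosen with earlier results of these data known. Named genes are the 8 largest changes each way among called members without overlapping libraries, the listed regulators, RNA proteins and silencers, the genes nearest the read limit, up to 4 members of each of the 3 largest clusters, the 3 most similar pairs and up to 4 genes of each other list.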

Additional observations from a re-analysis of the deposited data

How the results depend on the processing

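Calls of the 72 named genes, and the directions of those called, were the same under RLE factors, limma voom, DESeq2 and the fit with no filter on low counts. With GC correction 38 of them lost their call and 1 gained one with the same sign. Another 1 (Zfp52, not called before) also gained a call, with its sign reversed, and the cause was not tested. The member counts became 12 higher and 14 lower, those of KRAB members 0 (2 at an unadjusted p under 0.05) and 9, those of other members 12 and 5, those of the repression list 2 and 3, those of the SCAN list 1 and 0 (2 at an unadjusted p under 0.05), and those of all genes 1464 and 1448. The medians became -0.027 for members, -0.21 for KRAB members and 0.057 for the others. With total counts the medians were -0.29, -0.63 and 0.019, 3 KRAB members and 9 genes of the repression list were higher, and upper-quartile factors gave the members without a KRAB box -0.046. At an adjusted p under 0.01, 1765 genes were higher and 2041 lower, with 3 genes of the repression list higher and 1 and 2 SCAN genes higher and lower, and DESeq2 called 1 SCAN gene higher. A limit of 500 reads gave 15 members higher, 34 lower and a median of -0.34, and one of 100 reads 121 lower.

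Replicate numbers are shared between the groups, but the labels do not say that they pair the samples (correlation of deviations 0.234). With the replicate number as a block 31 members were higher and 84 lower, with 2 KRAB members higher and 10 and 17 genes of the repression list higher and lower. The block with GC correction gave 27 members lower, 3 KRAB members higher and 17 lower, 10 other members lower, 5 genes of the repression list and 2 of the SCAN list lower, and medians of -0.028, -0.21 and 0.067 for members, KRAB members and others. Zfp52 was then at 0.55 and Zfp874a at 0.37.

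Leaving out 1 library at a time gave 19 to 32 members higher and 55 to 85 lower, 1 to 2 and 37 to 54 KRAB members, 18 to 30 and 18 to 31 others, 2 to 7 and 7 to 14 genes of the repression list, 1 to 3 and 2 to 5 of the SCAN list, and 1800 to 3598 and 2055 to 3728 of all genes. The medians ranged from -0.48 to -0.35, -0.81 to -0.66 and -0.11 to -0.043. In these fits 49 members stayed lower and 16 higher throughout. With GC correction the same ranges were 0 to 16 and 2 to 22, 0 to 1 and 0 to 13, 0 to 15 and 0 to 9, 0 to 3 and 1 to 6, 0 to 2 and 0 to 1, and 396 to 1752 and 437 to 1836, with medians of -0.083 to 0.0075, -0.22 to -0.17 and 0.029 to 0.070. The lowest counts came without tamoxifen replicate 1 or 2, and no member was called in all of these fits (11 non-KRAB members were higher at an unadjusted p under 0.05 without tamoxifen replicate 2). Over all fits without 1 library, corrected or not, and among genes called either there or with all libraries, the sign turned in Zfp385a (-0.064 to 1.23), Zfp322a (-1.08 to 0.029), Zfp644 (-0.70 to 0.069), Zfp445 (-0.63 to 0.10), Zfp423 (-0.017 to 0.57), Zfp598 (-0.12 to 0.92), Zfp354c (-0.80 to 0.16), Zfp52 (-0.34 to 0.67), Zfp955a (-1.07 to 0.039) and Zfp874b (-0.75 to 0.080), and these calls turned with GC correction. Genes not called in either fit, such as Zfp410, Zfp462 and Zfp90, also changed sign around 0 without it. The 2 libraries per group limit all of these values, and the tamoxifen libraries are the shallower ones by mean depth.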
